A study of Mus musculus with 11 samples.

Results

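The genes described here keep and express the mitochondrial genome. They are Polg and Polg2 (subunits of the mitochondrial DNA polymerase), Ssbp1 and Mgme1 (replication accessory factors), and Tfam, Polrmt, Tfb2m and Tfb1m (transcription and packaging factors). The 8 genes were listed by name and function, and all 8 were found among the 19935 genes measured. The list was selected on a measured value, because Polg was among the strongest falls in mutant cells in N2B27. The genotype difference in N2B27, and the interaction that contains it, are therefore given as descriptions without a test.

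RNA of mouse embryonic stem cells (ESCs) was hybridised to 11 Affymetrix arrays, and the values are RMA log2 values centred on a baseline of each gene. Control cells were wild type ESCs of the E14 line, in ESC medium (n = 3) or after 3 days in N2B27 (n = 3), a defined medium without serum that lets ESCs differentiate. Mutant cells, labelled Bmpr1a-/-, have lost a receptor of the BMP growth factors and were kept in ESC medium (n = 2, numbered 2 and 3) or for 3 days in N2B27 (n = 3). Mutant lines C1-6, Fr124 and Fr88 are named for the study as a whole and not per array, and separate cultures are not stated. A p-value thus measures only how arrays of a group spread, which may be technical, and so few arrays limit the precision. Because each gene is centred, a value has meaning only against other arrays of the same gene, and levels cannot be compared between genes.

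The mitochondrial genome is a small circle present in many copies per cell. Polymerase gamma, a catalytic subunit encoded by Polg with an accessory dimer encoded by Polg2, copies it behind the Twnk helicase, while Ssbp1 coats the single strands and the nuclease Mgme1 trims the ends. Transcription is carried out by Polrmt with Tfb2m and Tfam. Tfam also packages the DNA into nucleoids, and Tfb1m methylates the small ribosomal RNA. All of these proteins are encoded in the nucleus, so the arrays read the nuclear supply of the machinery and not the amount of mitochondrial DNA.

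The promoters of Polg, Polg2 and Tfb2m are shown because Polg led the choice of the genes, and because Polg2 and Tfb2m had the lowest adjusted p among the members tested between media. The sequences are the 250 bases before the start in RefSeq (GRCm38.p6), all on the minus strand and read 5′ to 3′ along the gene. They lie at chr7:79466274-79466523 for Polg, chr11:106779538-106779787 for Polg2 and chr1:179546277-179546526 for Tfb2m. Capitals mark an ETS core (CCGGAAG, the kind of site bound by Gabpa) or a SP1 core (GGGCGG), on either strand.
Polg: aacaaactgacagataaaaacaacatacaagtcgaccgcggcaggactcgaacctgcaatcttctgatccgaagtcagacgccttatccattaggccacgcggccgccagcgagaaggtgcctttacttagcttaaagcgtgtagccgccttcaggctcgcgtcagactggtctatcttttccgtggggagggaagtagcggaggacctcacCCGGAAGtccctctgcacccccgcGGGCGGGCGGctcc
Polg2: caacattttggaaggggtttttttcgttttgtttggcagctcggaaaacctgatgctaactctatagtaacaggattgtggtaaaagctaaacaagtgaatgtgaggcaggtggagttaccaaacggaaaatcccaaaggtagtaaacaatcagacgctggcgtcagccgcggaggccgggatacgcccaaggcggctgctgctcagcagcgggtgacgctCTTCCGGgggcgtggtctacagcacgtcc
Tfb2m: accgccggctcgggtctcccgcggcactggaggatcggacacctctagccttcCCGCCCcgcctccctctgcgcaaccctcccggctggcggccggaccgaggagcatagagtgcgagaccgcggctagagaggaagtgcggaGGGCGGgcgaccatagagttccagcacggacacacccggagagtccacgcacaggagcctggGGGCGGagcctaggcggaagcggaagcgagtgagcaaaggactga

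An ETS core began 38 bases before the start in Polg and 29 bases before it in Polg2, and Tfb2m had none. Polg had overlapping SP1 cores at 14 and 10 bases before the start, and Tfb2m had them at 197, 107 and 45. In the 300-base window that runs 50 bases past the start, 5 of the 8 members held an ETS core (Polg, Polg2, Tfam, Polrmt and Ssbp1), against 8.86% of 32851 mouse promoters. An SP1 core stood in 5 of 8, against 35.7% of promoters. A NRF1 core (GCGCANGCG), searched on both strands, stood in Tfb2m and Polrmt, against 6.25%. A YY1 core (AAGATGGCG) stood in Mgme1, against 1.40%. In Polrmt the 2 NRF1 matches overlap each other. A match is a run of letters in the window and not a bound site. The annotated gene Polg reaches further upstream than the start used here, so other starts of the gene are not covered.

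Polg read 0.41, 0.53 and 0.63 in control cells in ESC medium and -0.16 and -0.24 in mutant cells. After 3 days in N2B27 the control arrays stood at 1.96, 1.75 and 2.36 and the mutant arrays at 0.05, -0.20 and 0.00. The 3 control arrays in N2B27 thus stood far above all others, the control arrays in ESC medium came next, and all 5 mutant arrays lay below every control array. The group means ran from 2.02 ± 0.31 (SD, n = 3) in control N2B27 through 0.53 ± 0.11 (n = 3) in control ESC medium to -0.05 ± 0.13 (n = 3) in mutant N2B27 and -0.20 ± 0.05 (n = 2) in mutant ESC medium. The 2 mutant groups overlapped, while neighbouring groups higher in the order did not.

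**Figure D1:**
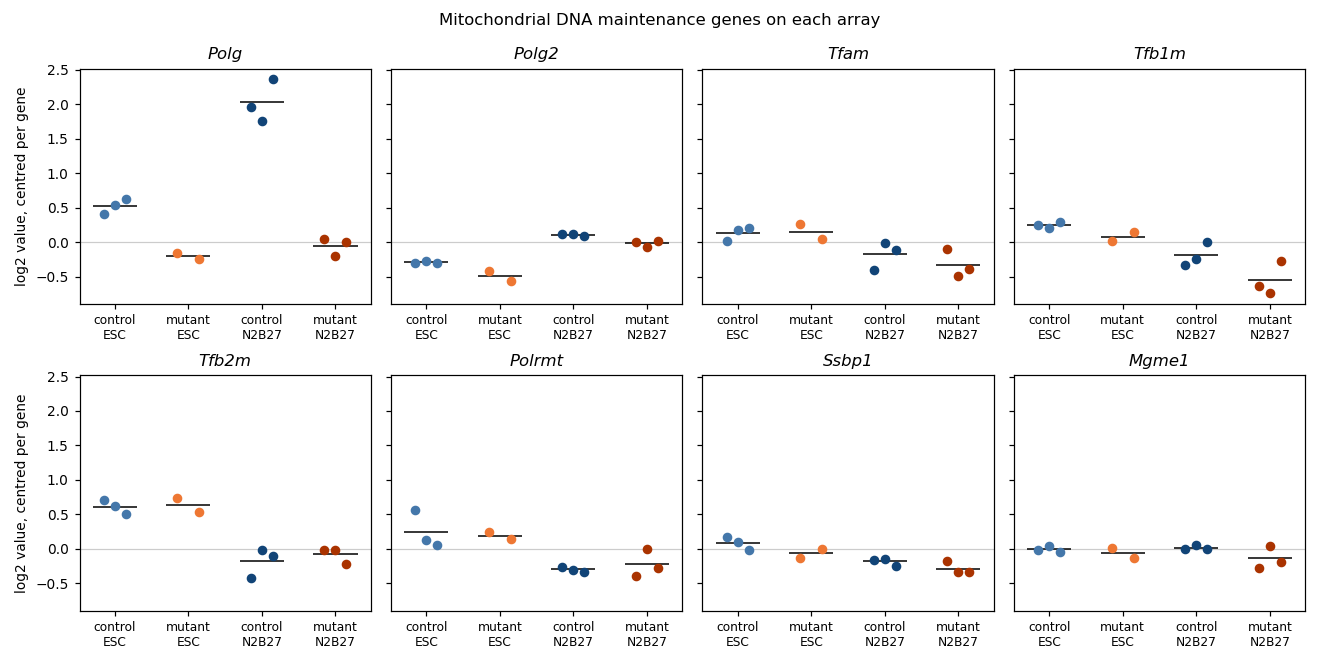
Centred log2 value (y axis) of the 8 mitochondrial DNA maintenance genes in the 4 groups (x axis), with 1 point per array and a line at the group mean. Polg stands at 1.75 to 2.36 in control N2B27 and at -0.24 to 0.05 in the 5 mutant arrays, and no other member spans such a range.

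Whether Polg also differed by genotype in cells that were not used to choose it was addressed in ESC medium. Polg fell in mutant cells there by 0.73 on the log2 scale, a 1.65-fold lower level (SE 0.15, 95% interval -1.07 to -0.39, limma adjusted p = 0.0203). It was the only 1 of the 8 members called, against 6.14% of all 19935 genes called (3.09% higher and 3.05% lower). Leaving out 1 array ended the call for control replicate 2 (limma adjusted p = 0.0668), control replicate 3 (0.075) and both mutant arrays (0.127 without number 2 and 0.138 without number 3), with differences from -0.76 to -0.67. Under cyclic loess the difference was -1.89 (limma adjusted p = 0.00241). These arrays are other samples than those that chose the gene. The spread behind the SE and p was fitted over all 4 groups, however, so the N2B27 arrays enter it. The test is thus not fully separate from the choice. Control cells were of the E14 line in both media, and the mutant line is not named per array. Whether the mutant lines are the same in both media is therefore not known.

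No other member passed in ESC medium. Polg2, the accessory subunit gene, stood at -0.30, -0.28 and -0.30 on the control arrays and lower on both mutant arrays, at -0.42 and -0.56. Its difference was -0.20 (SE 0.06, limma adjusted p = 0.101, 95% interval -0.33 to -0.06), and it was called only with array weights (limma adjusted p = 0.021) among the alternatives. Tfb1m, the ribosomal RNA methyltransferase gene, also did not overlap between genotypes, at 0.21 to 0.29 in control and 0.02 and 0.14 in mutant. Its difference of -0.17 had an interval from -0.47 to 0.13. The share of all genes without such overlap is not given, so overlap here and below only describes the arrays.

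The other 5 overlapped between genotypes in ESC medium, with differences of -0.15 for Ssbp1, -0.05 for Mgme1 and Polrmt, and 0.02 for Tfam and Tfb2m. Their 95% intervals reached from -0.33 to 0.03 for Ssbp1, -0.26 to 0.16 for Mgme1, -0.38 to 0.28 for Polrmt, -0.30 to 0.33 for Tfam and -0.26 to 0.30 for Tfb2m. The median over the members was -0.10, beside -0.01 over all genes. Markers of fibroblasts or feeder cells moved with genotype in this medium. Of 6, Col1a1 (-1.32), Col1a2 (-0.73) and Tagln (-2.23) fell, while Thy1 (0.08), Col3a1 (0.03) and Postn (0.06) did not pass. The summed log2 value of the list ran from 0.37 to 1.43 in control and from -3.53 to -2.88 in mutant, a gap carried by the 3 that fell. Of the other lists the ESC marker Zfp42 was called (0.88, limma adjusted p = 0.0416, but -0.41 under cyclic loess). The summed ESC markers stood higher in mutant cells without overlap, at 11.71 to 11.79 against 8.68 to 11.22. Of these 9 markers, 7 had a difference above 0. Trophoblast, mesoderm and neural sums were lower in mutant cells without overlap, at -0.37 to -0.24 against 0.43 to 1.07, 0.16 to 0.25 against 0.50 to 0.62 and -0.89 to -0.81 against -0.68 to 0.07, with no gene called. The neural gap was carried by Nes (-0.84), as the other neural genes differed by -0.08 to 0.26. In bulk RNA, fewer cells of a type and less RNA per cell cannot be told apart. The part of these cell types in the Polg difference was not tested.

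In N2B27 the genotype difference of Polg was -2.07 (SE 0.14), a 4.20-fold lower level in mutant cells. It ranked as the fall number 4 of 19935 genes, after the Y-linked demethylase gene Uty (-2.67) and before Txnip (-1.91), an inhibitor of thioredoxin. This is the value on which the gene was chosen. Leaving out any 1 of the 6 arrays gave -2.21 to -1.91. In that comparison 5.74% of all genes were called, 4.10% higher and 1.64% lower. ESC markers also stood higher in mutant cells there, 3 of 9 being called, with summed log2 values from -5.33 to -2.57 in mutant and from -10.91 to -7.81 in control. Of the other marker lists, Nes, a neural progenitor gene, stood higher in mutant cells (1.27), and Dab2 (-0.51, primitive endoderm) and Col1a2 (-0.58, fibroblasts) stood lower. Each was the only called gene of its list, of 6, 5 and 6, and none of 4 trophoblast and 4 mesoderm markers was called. The summed values of the neural list ran from -0.72 to 0.40 in control and from 0.86 to 1.28 in mutant, those of primitive endoderm from 0.59 to 0.99 and -0.04 to 0.19, and those of trophoblast from -0.37 to -0.31 and 0.15 to 2.16, without overlap. The neural gap was carried by Nes, as the other neural genes differed by -0.10 to 0.14 and the list median was -0.03. Fibroblast sums (0.68 to 2.43 and -0.07 to 2.06) and mesoderm sums (-0.47 to 0.11 and -0.48 to 0.96) overlapped. The part of these cell types in the Polg difference was not tested.

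The other 7 members differed far less by genotype in N2B27. Tfb1m stood at -0.33, -0.24 and 0.00 on the control arrays and at -0.63, -0.74 and -0.28 on the mutant arrays, a difference of -0.36 (SE 0.12) with overlapping groups. Polg2 stood at 0.11, 0.12 and 0.09 on the control arrays and at 0.00, -0.07 and 0.01 on the mutant arrays, a difference of -0.13 (SE 0.05) without overlap. Mgme1 and Tfam differed by -0.15 each and Ssbp1 by -0.10, while Polrmt and Tfb2m stood 0.07 and 0.11 higher in mutant cells. All 5 overlapped between genotypes, a description without the share over all genes. With Polg included, the members' median was -0.14, beside -0.00 over all genes.

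**Figure D2:**
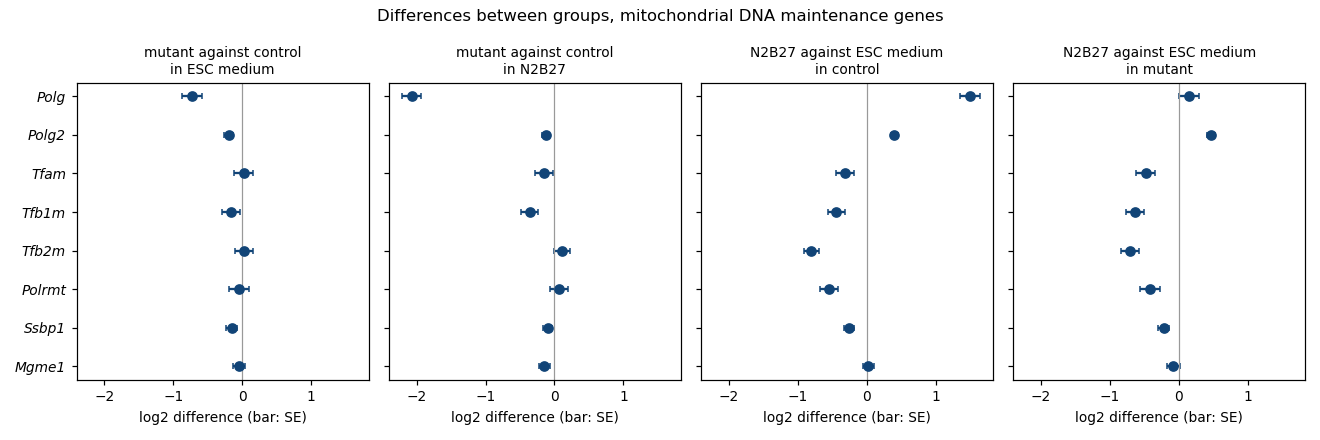
Log2 difference between groups (x axis, bars are the standard error) for each member (y axis) in the 2 genotype and 2 medium comparisons. Polg lies at -0.73 and -2.07 by genotype and at 1.50 and 0.15 by medium, while Polg2 rose and Tfb2m fell with N2B27 in both genotypes.

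How the members changed when cells left ESC medium was addressed within each genotype. In control cells Polg stood 1.50 higher in N2B27 (SE 0.14), a 2.82-fold higher level, and in mutant cells 0.15 higher (SE 0.15). The first of these values uses the control arrays and the second the mutant arrays on which the gene was chosen, so neither was tested. The difference between them, -1.35 (SE 0.20), holds the same contrast, as do the values of the other members, from -0.19 for Tfb1m to 0.12 for Polrmt. Over all genes 2.12% were called in this interaction. The Polg values without any 1 array ran from 1.33 to 1.63 in control and from 0.10 to 0.22 in mutant. Under cyclic loess they were 2.43 and 1.91, and their difference was -0.53. That scaling orders genes by brightness, for which it takes the mean of centred values, and these do not give it.

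The accessory subunit gene was higher in N2B27 whatever the genotype. Polg2 rose in both genotypes, by 0.40 (SE 0.05, limma adjusted p = 0.000552) in control and by 0.47 (SE 0.06, limma adjusted p = 0.000411) in mutant. In control its arrays moved from -0.30, -0.28 and -0.30 to 0.11, 0.12 and 0.09, and in mutant from -0.42 and -0.56 to 0.00, -0.07 and 0.01. No array in N2B27 overlapped with one in ESC medium of the same genotype. Polg2 was called under all alternatives run, and it was the only one of the 7 members tested that rose.

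The genes of transcription and packaging stood lower in N2B27, though not all passed. Tfb2m, which opens the promoter for the polymerase, read 0.71, 0.62 and 0.51 in control ESC medium and -0.42, -0.02 and -0.10 in control N2B27. In mutant cells it read 0.74 and 0.53 and then -0.01, -0.01 and -0.22. It fell by 0.80 in control (SE 0.11, limma adjusted p = 0.000693) and by 0.71 in mutant (SE 0.13, limma adjusted p = 0.0022), and the groups did not overlap. Under cyclic loess the mutant difference was -0.39 (limma adjusted p = 0.0577).

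Tfb1m fell by 0.44 in control (SE 0.12, limma adjusted p = 0.0212) and by 0.63 in mutant (SE 0.13, limma adjusted p = 0.00612). The control call was lost without ESC medium replicate 1 (limma adjusted p = 0.0562) or 3 (0.0623) or N2B27 replicate 1 (0.0804) or 2 (0.0663), and the mutant call without ESC medium replicate 3 (0.0563). Polrmt, the RNA polymerase gene, read 0.56, 0.13 and 0.06 in control ESC medium and -0.26, -0.30 and -0.33 in control N2B27. It fell there by 0.55 (SE 0.13, limma adjusted p = 0.0122). In mutant cells Polrmt read 0.24 and 0.15 and then -0.39, 0.00 and -0.28, a difference of -0.42 that was not called (SE 0.15, limma adjusted p = 0.0622). It was called there without N2B27 replicate 2 (limma adjusted p = 0.0178), the array nearest to ESC medium.

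Tfam, the packaging factor gene, read 0.02, 0.17 and 0.21 in control ESC medium and -0.40, -0.01 and -0.12 in control N2B27, a difference of -0.31 (SE 0.13, limma adjusted p = 0.102). In mutant cells it read 0.26 and 0.04 and then -0.10, -0.49 and -0.39. It fell there by 0.48 (SE 0.14, limma adjusted p = 0.0311). That call was lost without ESC medium replicate 2 (limma adjusted p = 0.244) or 3 (0.0524), without N2B27 replicate 2 (0.0698) or 3 (0.0879) and with the replicate number as a block (0.059). The interaction of Tfam was -0.17 (SE 0.19), so the genotypes are not shown to differ in this response.

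Ssbp1, the single-strand binding protein gene, fell in control by 0.26 (SE 0.07, limma adjusted p = 0.0221), and its mutant difference was -0.22 (SE 0.08, limma adjusted p = 0.0776). The control call was lost without ESC medium replicate 1 (limma adjusted p = 0.084) or 2 (0.0683) or N2B27 replicate 1 (0.0521) or 3 (0.0817). The mutant difference was called without N2B27 replicate 1 (0.0367) and with the replicate block (0.0435). Ssbp1 is a mean of 2 transcript clusters, whose differences were close in control but not in mutant cells. Cluster 10375125 read 0.05, 0.09 and 0.01 in control ESC medium and -0.30, -0.17 and -0.22 in control N2B27, and by itself gave -0.28 in control (SE 0.06, limma adjusted p = 0.0058) and -0.34 in mutant (SE 0.06, limma adjusted p = 0.00388). Cluster 10537494 read 0.28, 0.10 and -0.05 and then -0.03, -0.11 and -0.25, and by itself gave -0.24 in control (SE 0.13, limma adjusted p = 0.208) and -0.10 in mutant (SE 0.14, limma adjusted p = 0.723). Whether both clusters read the same gene was not tested. The 2 clusters of Tfb2m, by contrast, differed by at most 0.05 on any array.

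Mgme1, the nuclease gene, changed least. It read -0.05 to 0.05 in control ESC medium, 0.00 to 0.06 in control N2B27, -0.13 and 0.01 in mutant ESC medium and -0.27 to 0.05 in mutant N2B27. Its medium differences were 0.02 in control (95% interval -0.16 to 0.21) and -0.08 in mutant (-0.29 to 0.13). Of the 7 members tested, 1 rose, 4 fell and 2 did not pass in control, beside 26.1% of all genes called (12.8% higher and 13.3% lower). In mutant cells 1 rose, 3 fell and 3 did not pass, beside 25.2% called (14.9% higher and 10.3% lower). The median of the 7 was -0.31 in control and -0.42 in mutant, beside 0.02 and 0.01 over all genes. All 9 ESC markers fell with N2B27 in both genotypes. Their summed log2 value ran from 8.68 to 11.22 in control ESC medium, -10.91 to -7.81 in control N2B27, 11.71 to 11.79 in mutant ESC medium and -5.33 to -2.57 in mutant N2B27. The part of this change of state in the members' differences was not tested.

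The rest of the machinery was covered by 80 measured genes in 8 functional lists. In ESC medium 2 of the 80 differed by genotype (2.50%, beside 6.14% of all genes). Slc25a4, the adenine nucleotide carrier gene, rose in mutant cells by 0.40 (SE 0.08, limma adjusted p = 0.0201), and it lies on chromosome 8. Genes of that chromosome stood higher in mutant cells than those of other autosomes by a median of 0.132 in ESC medium and 0.175 in N2B27, while no member lies on it. Aptx, a DNA end repair gene, fell by 0.44 (SE 0.08, limma adjusted p = 0.00895). Aptx was not called without mutant replicate 2 (limma adjusted p = 0.106). Slc25a4 passed without control replicate 1 but not without any other array (limma adjusted p from 0.0668 to 0.151).

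In N2B27, 5 of the 80 rose and 1 fell in mutant cells (7.50%, beside 5.74% of all genes). Fastkd1, a mitochondrial RNA regulator gene, rose by 0.53 (SE 0.07, limma adjusted p = 0.00411), Lrpprc, which stabilises mitochondrial messenger RNA, by 0.42 (SE 0.06, limma adjusted p = 0.00372) and Slc25a4 by 0.57 (SE 0.08, limma adjusted p = 0.00307). These 3 calls held in all 13 alternatives. Nsun4, an RNA methyltransferase gene, and Tefm, the transcription elongation factor gene, rose by 0.44 and 0.39. Nsun4 was not called without control replicate 1 (limma adjusted p = 0.0591) or 3 (0.0721), nor Tefm without control replicate 2 (0.0843) or 3 (0.0649). With the compared groups fitted by themselves neither passed (limma adjusted p = 0.086 and 0.0552), and 3 of the 80 did. X-linked Hsd17b10, of the RNase P complex, fell by 0.42, a call lost without any 1 of the arrays other than mutant replicate 3 (0.0554 to 0.165). Without control replicate 3, 3 of the 80 were called, and with the replicate block 9. Over all genes, 1144 were called in the main fit and 454 to 1204 without 1 array.

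**Figure D3:**
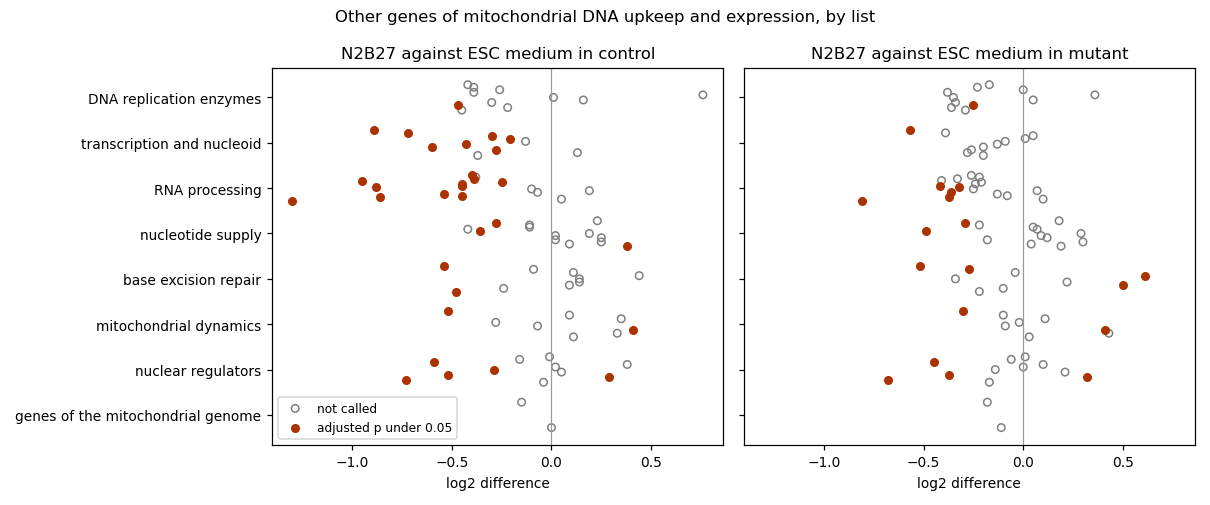
Log2 difference between N2B27 and ESC medium (x axis) for 80 other genes of mitochondrial DNA upkeep and expression, by list (y axis), in control (left) and mutant cells (right). Filled points had an adjusted p under 0.05, and 28 of the 31 filled points in control and 15 of the 19 in mutant lie below 0.

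With N2B27, 3 of the 80 rose and 28 fell in control cells (38.8%, beside 26.1% of all genes), and 4 rose and 15 fell in mutant cells (23.8%, beside 25.2%). The medians were -0.18 and -0.16. The RNA processing genes accounted for 11 of the 28 falls in control, out of 16 measured. Elac2, the tRNA 3′ end nuclease gene, fell by 1.30 (SE 0.21, limma adjusted p = 0.00151), Rexo2, an oligoribonuclease gene, by 0.95 and Nsun4 by 0.88. Of 10 transcription and nucleoid genes 7 fell in control, among them Tefm by 0.89 (SE 0.08, limma adjusted p = 7.2e-05), Slirp by 0.72 and Lrpprc by 0.60. The Slirp call held in 11 of 13 alternatives. In mutant cells 5 of the 16 and 1 of the 10 fell, the latter being Tefm, by 0.57 (SE 0.09, limma adjusted p = 0.00124).

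Of 11 nuclear regulators, 1 rose and 4 fell in control and 1 rose and 3 fell in mutant. Beside these counts and those of the lists that follow, 26.1% of all genes were called in control and 25.2% in mutant. Gabpa, the DNA-binding subunit of the ETS family factor NRF-2, fell by 0.73 in control (SE 0.11, limma adjusted p = 0.000841) and by 0.68 in mutant (SE 0.12, limma adjusted p = 0.00207). Pprc1, a coactivator gene of the PGC-1 family, fell by 0.59 and 0.45, the latter not called without mutant ESC medium replicate 2 (limma adjusted p = 0.0847). Among 11 DNA replication enzymes the nuclease gene Exog was called, at -0.47 in control and -0.25 in mutant. The mutant call of Exog was lost in 5 of 12 alternatives, among them those without ESC medium replicate 2, without ESC medium replicate 3 (limma adjusted p = 0.254, the highest) and without N2B27 replicate 1, and its value was -0.50 under cyclic loess. With the replicate block the mutant Exog call was lost (limma adjusted p = 0.0706), while Top3a (0.0148), Primpol (0.0299), Rnaseh1 (0.0184) and Dna2 (0.0176) were called in control and Rnaseh1 (0.0427) in mutant. Twnk, the helicase gene, was not, at -0.42 (limma adjusted p = 0.0995) and -0.17. Nucleotide supply had 1 higher and 2 lower of 13 in control and 2 lower in mutant, base excision repair 2 lower of 9 in control and 2 higher and 2 lower in mutant, and mitochondrial dynamics 1 higher and 1 lower of 8 in both.

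Of the 31 control and 19 mutant calls, 15 were shared with the same direction, which is 48.4% and 78.9% of the lists, and none was opposite. The shared part over all genes is not given, so nothing particular to these lists is shown. The control calls fell to 20 without ESC medium replicate 2. The mutant calls fell to 6 without ESC medium replicate 2, 8 without ESC medium replicate 3 and 12 without N2B27 replicate 3, and were 34 without N2B27 replicate 2. They were 6 when the compared groups were fitted by themselves, against 40 in control. With array weights 47 were called in control and 44 in mutant, and under cyclic loess 30 and 26, so these counts are not shown to differ.

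RNA of the mitochondrial genome was read through ND3, of respiratory complex I, and COX2, of cytochrome oxidase. Of 15 genes listed, these 2 had clusters with 1 symbol, and each is a mean of 2 clusters. ND3 read -0.02 to 0.18 in control ESC medium, 0.11 and 0.17 in mutant ESC medium, -0.15 to -0.03 in control N2B27 and -0.23 to 0.33 in mutant N2B27. COX2 lay between -0.33 and 0.18 on all 11 arrays. Neither was called in any comparison, with differences from -0.18 to 0.08. In control N2B27, the group with high Polg, COX2 read -0.08 to 0.07, within the range of the other groups. ND3 read -0.15 to -0.03 there, below every array in ESC medium and within the range of mutant N2B27. A link between Polg and these RNAs was not tested.

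The genes around Polg on chromosome 7 were set beside it. Of the 5 measured genes on either side, none was called by genotype in ESC medium. In N2B27, Rlbp1, a retinaldehyde-binding protein gene on the far side of Fanci from Polg, fell in mutant cells by 1.25 (SE 0.20, limma adjusted p = 0.00779). With the compared groups fitted by themselves its adjusted p in limma was 0.0528. Rlbp1 read 0.14, -0.12 and -0.19 in control ESC medium, 0.19 and 0.19 in mutant ESC medium, 1.33, 0.78 and 1.24 in control N2B27 and -0.05, -0.60 and 0.24 in mutant N2B27. It rose with N2B27 in control by 1.17 (SE 0.20, limma adjusted p = 0.00222), while the mutant difference was -0.32 (limma adjusted p = 0.383). Like Polg, it was high in the 3 control N2B27 arrays alone. Unlike Polg, it was not lower in mutant cells in ESC medium, where both mutant arrays lay above all control arrays (difference 0.25, limma adjusted p = 0.707).

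Between them lies Fanci, a DNA crosslink repair gene, whose annotated span overlaps that of Polg in RefSeq (GRCm38.p6), and where the array's probes lie was not tested. Fanci did not show the higher values of Polg in control N2B27. It read 0.11 to 0.26 in control ESC medium, -0.01 and 0.13 in mutant ESC medium, -0.05 to 0.16 in control N2B27 and -0.63 to -0.12 in mutant N2B27. Its medium difference was -0.12 in control (limma adjusted p = 0.546) and -0.46 in mutant (limma adjusted p = 0.0262, called in 7 of 12 alternatives). By genotype its difference in ESC medium was -0.12, which was not called (limma adjusted p = 0.757), and the arrays overlapped. In N2B27 its genotype difference was -0.46 (SE 0.12, limma adjusted p = 0.0484), which passed in 3 of 13 alternatives and in none that left out 1 array other than mutant replicate 3 (0.0813 to 0.145). On the other side, Mir9-3, Rhcg, Kif7 and Plin1 were called in no comparison. Ticrr, a replication initiation gene, was called by medium alone, at -0.76 in control and -1.11 in mutant. The median over chromosome 7 stood 0.00456 above other autosomes in ESC medium and -0.000189 in N2B27.

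**Figure D4:**
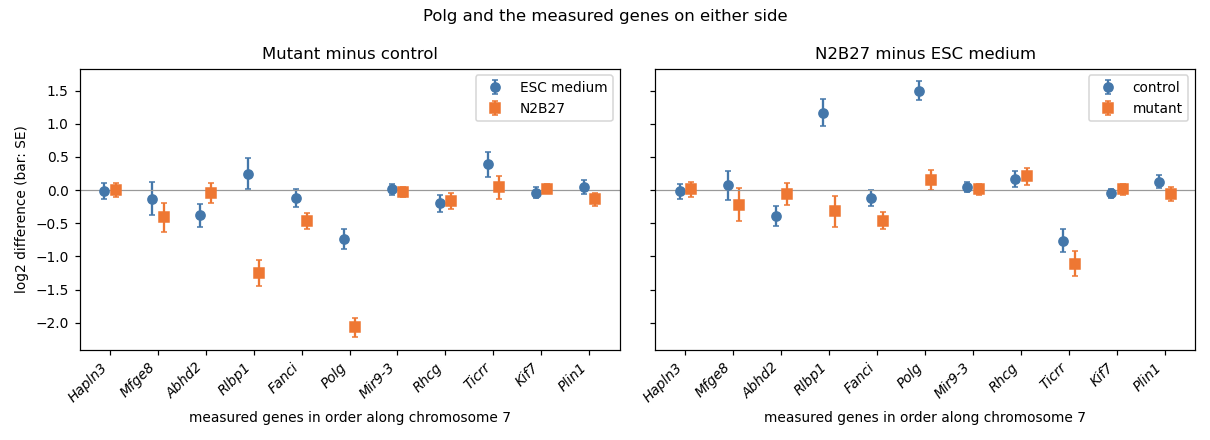
Log2 difference (y axis, bars are the standard error) of Polg and the 5 measured genes on either side, in order along chromosome 7 (x axis), by genotype (left) and by medium (right). Polg and Rlbp1 stand apart in N2B27, at -2.07 and -1.25 by genotype and at 1.50 and 1.17 by medium in control, while Fanci between them does not rise in control.

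Across the 11 arrays the genes most like Polg by Pearson correlation were Mien1 (0.970), Phf8 (0.960), Bmpr1a (0.956), Cdc25c (0.944) and Drap1 (0.941). These are descriptions of 11 points that share 4 groups. The 5 were picked by this correlation, so a group pattern like that of Polg follows from the choice. All 5 had their highest group mean in control N2B27 and lower means in mutant than in control in both media. None reached the range of Polg. Bmpr1a, the gene named in the mutant genotype, read 0.16 to 0.37 and -0.03 and 0.00 in control and mutant ESC medium, and 0.61 to 0.76 and -0.14 to 0.15 in N2B27. Phf8, an X-linked histone demethylase gene, had means of -0.05, -0.32, 0.26 and -0.27 in control and mutant ESC medium and control and mutant N2B27. Among the other members, the correlation with Polg was 0.64 for Polg2, 0.39 for Mgme1, 0.08 for Tfb1m, -0.07 for Ssbp1, -0.12 for Tfam, -0.46 for Polrmt and -0.49 for Tfb2m.

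The control and mutant cells also differ as lines. Eif2s3y, a Y-linked gene, read 0.37 to 0.72 in control and -3.73 to -3.54 in mutant arrays, and Hprt, a purine salvage gene, read -5.22 to -4.47 in control and -0.13 to 0.92 in mutant. A difference by genotype, that of Polg included, cannot be told apart from one between the lines. Mutant replicate 2 in N2B27 had the largest deviation from its group mean, with a root mean square of 0.185 against 0.0774 to 0.155 for the other arrays.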

How the data were processed

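Total RNA was labelled with biotin for 11 arrays, per the labels. The deposited values are log2 values per transcript cluster, and the submitters' processing notes name RMA and version 1.2 of Affymetrix Expression Console. The sources used here do not give the build of the array design. The log base follows from the usual output of RMA. Values run from -5.22 to 6.42, and 55.8% of 28815 clusters have an array at exactly 0, so each cluster was centred in a way the labels do not give. Brightness is lost, and neither a filter on dim clusters nor another background correction was run. The 21780 clusters with 1 gene symbol in the platform annotation (1605 have several, 5430 none) were averaged to 19935 genes. Of these clusters 21689 matched RefSeq (GRCm38.p6) by Entrez identifier.

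The 4 group means were fitted across all genes with limma 3.58.1 in R 4.3.3 (7 residual and 3.02 prior degrees of freedom). A gene was called at a two-sided Benjamini-Hochberg adjusted p under 0.05 over all 19935 genes, and the fit was checked on simulated data. Members, lists and the rule for naming genes were chosen with earlier results of these data known. The rule names all members, Bmpr1a, the genes next to Polg in rank, the 5 measured genes on either side of it, the 5 most correlated with it (predicted genes, receptors of smell and small RNAs left out), and per list and comparison up to 3 called genes of largest difference. Twnk, Hprt, Eif2s3y and the marker genes fall outside it and were named after their values were seen. Some called list genes that the rule allows are only counted, such as Aptx, which rose by 0.50 with N2B27 in mutant cells. Shared replicate numbers were checked for pairing. Deviations from the group means correlated by number at 0.256, 0.430 and 0.158 between genotypes in N2B27, and at 0.138, 0.181 and 0.131 between media in control cells. All of these exceeded 0.1, while the labels state no pairing. The other comparisons share 2 numbers each, at 0.0365 and 0.284 between genotypes in ESC medium and 0.215 and 0.266 between media in mutant cells. No correlation was computed between arrays of unlike number, so pairing is not shown. The main fit, which gave the p-values unless stated, has no term for replicate number, and the replicate block is an alternative.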

Additional observations from a re-analysis of the deposited data

Results flagged for a closer look

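Of the 80 other genes of mitochondrial DNA upkeep and expression, 1 was called in the interaction of genotype and medium. That is 1.25%, beside 2.12% of all genes. It was Lrpprc, which stabilises mitochondrial messenger RNA. Its control arrays went from 0.11, 0.13 and 0.14 in ESC medium to -0.51, -0.43 and -0.46 in N2B27. Its mutant arrays went from 0.16 and 0.14 to -0.10, 0.06 and -0.10. The interaction was 0.40 (SE 0.09, limma adjusted p = 0.0475). The call held in 7 of 18 alternatives, so a different response in the 2 genotypes is not shown. The call was lost without control ESC medium replicate 1 (limma adjusted p = 0.0621), 2 (0.121) or 3 (0.117), mutant ESC medium replicate 2 (0.165) or 3 (0.163), control N2B27 replicate 1 (0.0943), 2 (0.0858) or 3 (0.113) and mutant N2B27 replicate 3 (0.0589). It was also lost under cyclic loess (0.28, limma adjusted p = 0.145) and with a robust prior (0.0505).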

How the results depend on the processing

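The 8 members were refitted with the replicate block, with the compared groups only, with median centring, cyclic loess, array weights, the cluster of largest variance and a robust prior, and without each array. Single clusters of Ssbp1 and Tfb2m were tried after seeing the data. Of 601 member values, 543 kept their side of the threshold or moved by under 1 SD, and none that was called reversed. With the replicate block, Polg gave -0.74 (limma adjusted p = 0.0166) by genotype in ESC medium and -2.07 in N2B27, and the only member calls it changed were those of Tfam and Ssbp1 in mutant cells given above. In ESC medium 2 members were called with array weights, Polg2 being the second. Under cyclic loess Polg gave -2.42 by genotype in N2B27, 2.43 and 1.91 by medium in control and mutant, and an interaction of -0.53. By genotype in ESC medium it gave -1.89 there. Without 1 array, Polg in ESC medium ran from -0.78 to -0.67 and the members called from 0 to 1, and by medium 3 to 4 members were called in control and 2 to 5 in mutant. Counts over all genes moved more: 1224 by genotype in ESC medium became 3138 with array weights and 304 to 1428 without 1 array, 1144 in N2B27 became 397 with the compared groups only, 2882 with array weights and 454 to 1204 without 1 array, 5018 by medium in mutant became 7689 with array weights and 2720 to 5956 without 1 array, and 422 in the interaction became 657 with the replicate block, 273 under cyclic loess, 1782 with array weights and 59 to 633 without 1 array. By medium in control, 5205 became 3987 to 4509 without 1 array. Beyond the loss of arrays and the use of centred means by cyclic loess, the cause was not tested.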
